A study of Mus musculus with 8 samples.

Results

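The 36 genes described here encode the enzymes and transporters of glycolysis and lactate export, the kinases that set the flux of sugar carbon, the hypoxia-inducible factors with their oxygen-sensing hydroxylases, and commonly used target genes of these factors. They were taken by gene symbol from the deposited expression table, and all 36 were found among its 16888 genes. Their levels were measured by RNA sequencing of whole mouse pancreas. In the 4 CKO samples Anxa1, which encodes the phospholipid-binding protein annexin A1, was knocked out in myeloid cells only. The 4 WT samples carried floxed Anxa1 on both alleles (Anxa1 flox/flox). All 8 samples came from mice injected repeatedly with cerulein, which drives acinar cells past their secretory limit and brings on acute pancreatitis, so no untreated pancreas enters any comparison. The sources used here do not give the Cre driver, strain, sex, age or sampling time. Nor do they say if each sample of a group was its own animal, so a p-value measures only the spread between these samples.

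Glycolysis splits glucose into pyruvate and yields ATP without oxygen, and lactate dehydrogenase with the monocarboxylate transporters disposes of the pyruvate as lactate. Under low oxygen the prolyl hydroxylases of the Egln family stop marking HIF alpha subunits for destruction, and the stabilised factors bind ACGTG cores near many glycolytic genes and raise their transcription. Pancreatic acinar cells, which make the digestive enzymes, spend much energy on protein synthesis, and recruited macrophages and neutrophils are known for their use of glycolysis.

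The targeted gene, Anxa1, stood at 4.84, 4.76, 5.21 and 7.13 RPKM (reads scaled to the gene's length and the library's total) in CKO1 to CKO4. The values for WT1 to WT4 were 8.44, 14.7, 7.05 and 9.74 RPKM. CKO4 lay just above WT3, so the groups overlapped, and the log2 change (CKO minus WT throughout) was -0.73 (SE 0.19, adjusted p = 0.0417, limma with Benjamini-Hochberg adjustment). Leaving out any library other than CKO4 or WT3 ended the call (adjusted p up to 0.108). Library totals ran from 30469002 to 34359802 reads. Digestive enzyme genes took 57.8% to 66.72% of the reads, with the highest shares in CKO1 and CKO4, and the tissue's defining acinar markers were present in all 8 libraries. Across the 8513 tested genes (1 RPKM or more in at least 4 libraries) the median log2 change was -0.12, and it was -0.02 after each library was centred on its median, so values near -0.12 are no lower than those of a typical gene.

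Promoter windows are printed for 4 genes: Aldoc, Egln1 and Slc16a1, whose levels did not overlap between the groups, and Ldha, a textbook HIF target whose levels did. They come from RefSeq (GRCm38.p6) and run 5′ to 3′ on the strand of the gene, from 250 bases before the transcription start to 50 bases after it. Capitals mark ACGTG, read on both strands (CACGT is its reverse complement), and CACGTG holds the motif on both strands, so it counts as 2 overlapping matches.
Aldoc (chr11:78322823-78323122, plus strand): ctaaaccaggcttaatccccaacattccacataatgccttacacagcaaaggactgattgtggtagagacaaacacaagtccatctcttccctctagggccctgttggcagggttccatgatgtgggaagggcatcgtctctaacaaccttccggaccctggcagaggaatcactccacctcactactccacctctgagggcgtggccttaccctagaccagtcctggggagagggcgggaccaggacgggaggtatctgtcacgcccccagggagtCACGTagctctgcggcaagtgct
Egln1 (chr8:124949205-124949504, minus strand): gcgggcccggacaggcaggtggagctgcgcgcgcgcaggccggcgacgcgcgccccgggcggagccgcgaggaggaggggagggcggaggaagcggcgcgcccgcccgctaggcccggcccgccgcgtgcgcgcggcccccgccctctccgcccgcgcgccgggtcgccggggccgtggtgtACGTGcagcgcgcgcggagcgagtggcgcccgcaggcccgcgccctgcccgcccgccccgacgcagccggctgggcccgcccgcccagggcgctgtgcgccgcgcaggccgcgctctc
Slc16a1 (chr3:104638414-104638713, plus strand): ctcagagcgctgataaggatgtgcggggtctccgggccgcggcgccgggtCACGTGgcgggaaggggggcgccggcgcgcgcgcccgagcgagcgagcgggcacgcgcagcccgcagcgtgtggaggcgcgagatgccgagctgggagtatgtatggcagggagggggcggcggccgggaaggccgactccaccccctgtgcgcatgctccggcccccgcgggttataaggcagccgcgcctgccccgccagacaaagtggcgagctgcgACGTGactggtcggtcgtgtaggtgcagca
Ldha (chr7:46845554-46845853, plus strand): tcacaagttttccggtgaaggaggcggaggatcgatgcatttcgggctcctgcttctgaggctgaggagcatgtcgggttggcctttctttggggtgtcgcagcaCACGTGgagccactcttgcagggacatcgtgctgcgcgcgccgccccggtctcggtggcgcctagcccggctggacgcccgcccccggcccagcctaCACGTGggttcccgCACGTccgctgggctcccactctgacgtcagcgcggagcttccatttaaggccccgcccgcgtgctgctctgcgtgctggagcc
Counting the start base as 1, with no base 0, the Aldoc match lay at 28 and the Egln1 match at -68. The Slc16a1 matches lay at -200, -199 and 21. The first Ldha window held 5 matches, of which the farthest upstream was at -145. The second windows of Aldoc and Ldha, not printed, held 0 matches.

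A promoter window was found for 31 of the 36 genes, 44 windows in all because several genes have more than 1 start. ACGTG occurred in 25 of the 44 windows (56.8%), against 19.6% of the 32851 windows of all genes and 26.9% of the 8755 windows of tested genes. By gene, 22 of 31 (71%) had a match in at least 1 window, against 21.8% of all genes and 30.9% of tested genes with a window. Windows of the same gene can overlap, so 1 site can count in more than 1 window. The alternative HIF core, GCGTG, searched on both strands, occurred in 59.1% of the windows of these genes, against 32.4% of all windows and 52.2% of windows of tested genes. The 9 genes without ACGTG in any window were Gpi1, Pfkl, Pfkp, Tpi1, Eno1, Ldhb, Pdk1, Pdk4 and Pfkfb4. These are matches of letters in a fixed window and do not show binding.

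Of the 36 genes, 28 reached 1 RPKM in at least 4 libraries and were tested. The other 8 (Slc2a3, Hk2, Aldoc, Ldhb, Pdk1, Pfkfb4, Egln3 and Ankrd37) lay below that level. Levels spanned a wide range, as the plot of levels by library shows. Ndrg1, a stress-responsive gene induced by hypoxia, had the highest level, with 410 ± 127 RPKM in CKO and 383 ± 71.9 RPKM in WT (SD, n = 4 for each group here and below). The glycolytic enzymes followed, led by aldolase A (Aldoa, 102 ± 10.5 in CKO and 119 ± 7.53 RPKM in WT), triosephosphate isomerase (Tpi1, 79.5 ± 14.1 and 96.4 ± 3.72) and phosphoglycerate kinase (Pgk1, 60.6 ± 10.4 and 65.1 ± 4.39). In both groups the means of Tpi1 and Pgk1 lay further apart than their SD. Gapdh, often used as a housekeeping gene, averaged only 10.7 RPKM in CKO and 11.1 RPKM in WT.

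**Figure D1:**
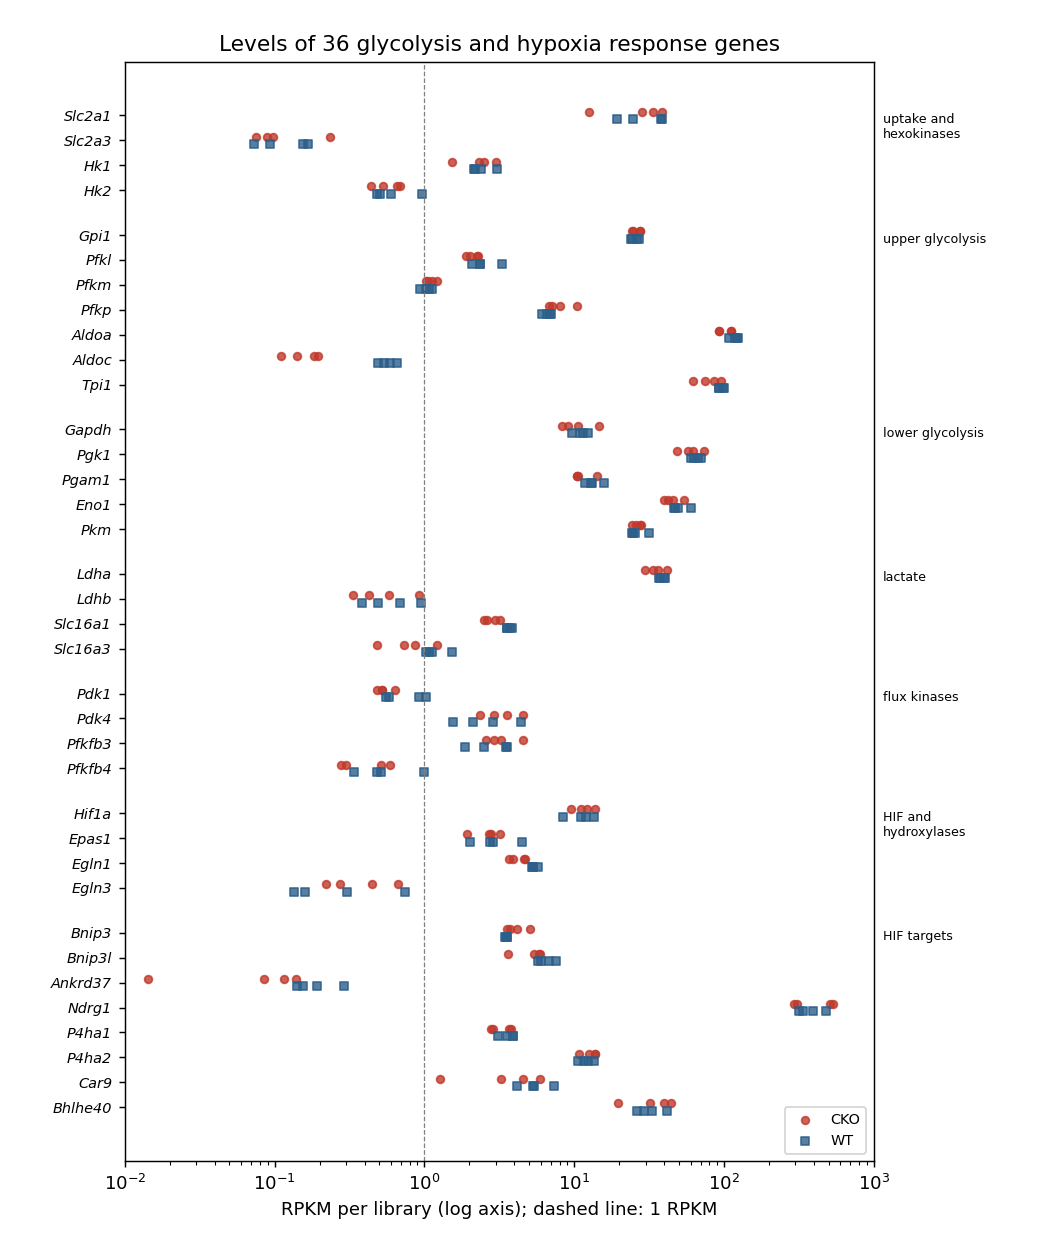
Level of each of the 36 genes in each library, in RPKM on a log axis, by role. Circles are the 4 CKO libraries and squares the 4 WT libraries, and the dashed line is 1 RPKM. The groups overlap for all genes except Aldoc, Slc16a1, Egln1 and Ankrd37, where every CKO library lies below every WT library.

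Order among genes rests on the gene length that the authors divided by. The length recovered for Ldha was 5342 bases and for Pkm 6119 bases, while the longest GENCODE M21 transcripts are 1815 and 2432 bases, so their RPKM are low for the reads they drew. Other genes differed too, in both directions. The recovered length was above the longest transcript for Aldoa (2317 against 1549 bases). It was below it for Ndrg1 (2890 against 4049) and Pfkp (4475 against 8681). Several of these genes also share sequence with other annotated genes, either copies or genes whose exons overlap theirs. Of the 50-base windows of their transcripts, 53.9% in Pgk1, 47.2% in Bnip3, 36.2% in Pgam1, 26% in Eno1, 25.8% in Pkm and 25.1% in Gapdh also occur in another gene. For Pkm the gene that shared most was Gm49759, whose exons overlap its own. The sources used here do not give how reads that fit several genes were counted, so the levels of these 6 are uncertain. Nor do they say whether strand was used, and exons of Slc2a1, Hk1, Pfkp, Tpi1, Hif1a, Ndrg1 and Car9, among others, overlap those of another annotated gene. Aldoc, Slc16a1 and Egln1 shared 0 such windows.

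None of the 28 tested genes passed an adjusted p of 0.05. The counts were 0 higher and 0 lower in CKO, where 1.42% of all tested genes were called higher and 5.74% lower (7.17% in either direction). At an unadjusted p under 0.05 there were 3 (Slc16a1, Egln1 and Tpi1), against 27.3% of all tested genes. On the reads recovered from the RPKM values limma-voom called 0 of 28, against 4.97% of all genes, with 2 at an unadjusted p under 0.05, against 27.2%. The log2 change was positive for 10 genes and negative for 18, against 2522 and 5991 of all 8513 tested genes. On the log2(RPKM + 1) scale it ran from -0.56 for Car9 to 0.25 for Pdk4, and its size was under 0.3 for 27 of 28. The median was -0.11, close to the -0.12 of all tested genes. That scale understates changes of low genes. With limma-voom on genes with 10 reads in at least 4 libraries, Car9 stood at -0.73, Slc16a3 at -0.58 and Slc16a1 at -0.39. Pdk4 stood at 0.35 there, and the adjusted p of each of these genes was at least 0.105.

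The intervals show what size of change these libraries leave room for. For 24 of 28 genes the 95% confidence interval of the log2 change lay within 0.58 of 0 on either side, which is a 1.5-fold change on the log2(RPKM + 1) scale. Of all tested genes, 68.4% had an interval within that bound. The 4 that reached past it were Slc2a1, Pdk4, Bnip3l and Car9. The plot of changes with their intervals shows the narrowest ones for Pfkm and Gpi1. Pfkm averaged only 1.07 RPKM, where the pseudocount of 1 narrows an interval. Its SE was 0.09 here and 0.18 with limma-voom on genes with 10 reads in at least 4 libraries.

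**Figure D2:**
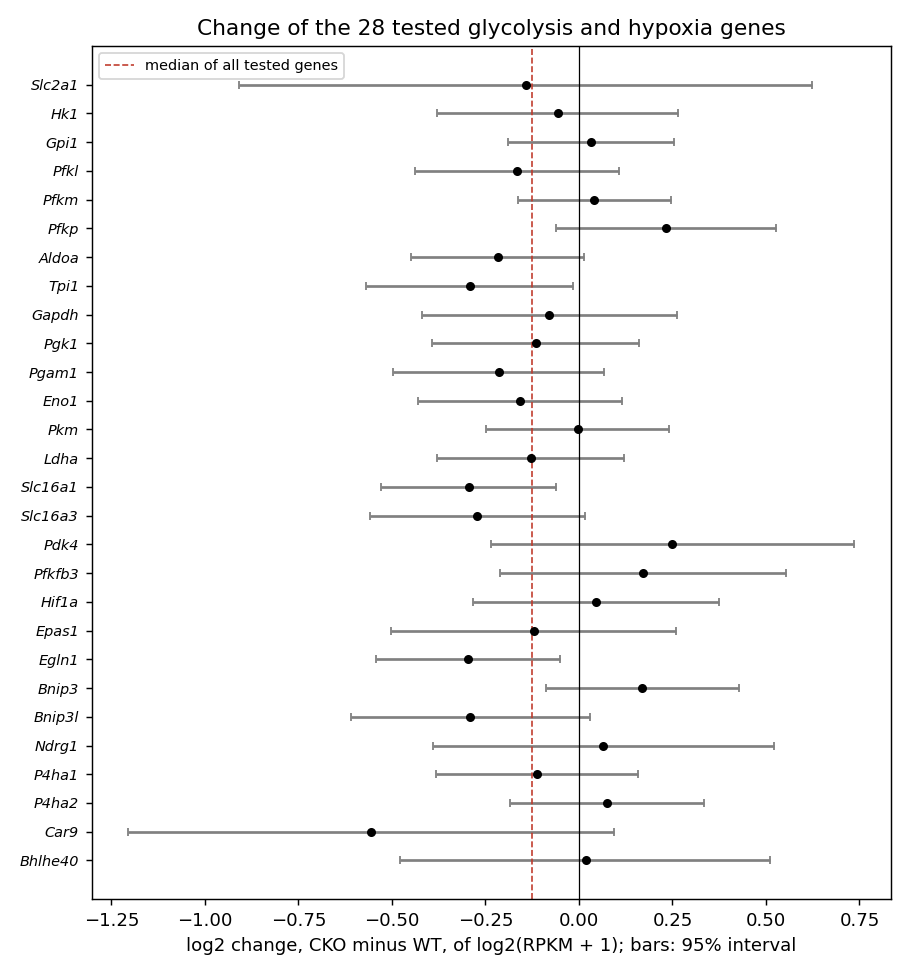
Log2 change (CKO minus WT) of the 28 tested genes on the log2(RPKM + 1) scale, as points with 95% confidence intervals. The solid line is 0 and the dashed line is the median of all tested genes at -0.12. All intervals include 0 except those of Tpi1, Slc16a1 and Egln1, and none of these 3 passed after adjustment over all tested genes.

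Glucose uptake and its first phosphorylation showed no called change. Slc2a1, which encodes the basal glucose transporter GLUT1, was at 28.4, 33.8, 38.9 and 12.6 RPKM in CKO and at 38, 19.4, 38.8 and 24.9 RPKM in WT (libraries 1 to 4 in order, here and below). The groups overlapped over most of their range, with CKO4 lowest of all, and the log2 change was -0.14 with an interval from -0.91 to 0.62 (adjusted p = 0.82). Hk1, the widely expressed hexokinase, was at 2.33, 2.51, 3 and 1.54 RPKM in CKO and at 2.15, 3.07, 2.39 and 2.19 RPKM in WT. Again CKO4 was lowest, and the change of -0.06 (adjusted p = 0.835) turned positive (0.05 and 0.01) with median centring and with totals that leave out the digestive enzymes. The neuron-type transporter Slc2a3 and the inducible hexokinase Hk2 stayed below 1 RPKM in all libraries.

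Isozyme use is given here as the percent of the summed RPKM of an isozyme family, so it also rests on the gene lengths used. GLUT1 made up 97.4% to 99.4% of Slc2a1, Slc2a2 and Slc2a3 together. Among the phosphofructokinases, which catalyse the committed step, the platelet-type Pfkp led over the liver type Pfkl and the muscle type Pfkm. Its share was 69, 72.8, 75.8 and 67.1% in CKO1 to CKO4 and 68.1, 62.4, 65.8 and 64.5% in WT1 to WT4. CKO4 lay below WT1, so the shares overlapped, and the mean was 71.2% ± 3.87 in CKO and 65.2% ± 2.4 in WT. Neither gene was called: Pfkp had a log2 change of 0.23 (interval -0.06 to 0.53, adjusted p = 0.283) and Pfkl of -0.17 (adjusted p = 0.413).

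In the upper, ATP-consuming stretch of glycolysis the smallest p belonged to Tpi1, which interconverts the 2 triose phosphates. The CKO libraries held 74.6, 85.6, 95.2 and 62.4 RPKM, and the WT libraries 93.5, 101, 98.4 and 93.1 RPKM. CKO3 alone reached the WT range. The log2 change was -0.29 (SE 0.13, unadjusted p = 0.0405, adjusted p = 0.163 by limma). Aldoa, the main aldolase, was at 93.4, 112, 111 and 93.1 RPKM in CKO and 125, 123, 108 and 119 RPKM in WT, and only WT3 fell among the CKO values (log2 change -0.22, adjusted p = 0.21). Gpi1, the isomerase between the hexokinase and phosphofructokinase steps, was at 26.0 ± 1.8 RPKM in CKO and 25.4 ± 1.61 RPKM in WT (0.03, adjusted p = 0.871).

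The 5 enzymes of the lower stretch all had log2 changes at or below 0, from -0.21 for phosphoglycerate mutase (Pgam1) to 0.00 for pyruvate kinase (Pkm), and none was called. Their median was -0.115, against -0.124 for all tested genes. Pgam1 was at 10.5, 10.5, 14.2 and 10.7 RPKM in CKO and 13.1, 15.8, 12.9 and 11.9 RPKM in WT. CKO3 stood above its group and inside the WT range, and the adjusted p was 0.306. Eno1, the main enolase, was at 42.7, 45.9, 54.3 and 40 RPKM in CKO and 46.8, 60.6, 49.8 and 47 RPKM in WT, with CKO3 and WT2 highest of their groups (-0.16, adjusted p = 0.441). The changes of Pgk1 (-0.12, adjusted p = 0.584) and Gapdh (-0.08, adjusted p = 0.78) were smaller still. Those of Gapdh and Pkm turned positive with median centring (0.02 and 0.10) and with totals without the digestive enzymes (0.01 and 0.09).

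In lactate metabolism Ldha, the pyruvate-to-lactate subunit, made up 97.5% to 99.1% of Ldha and Ldhb together in all libraries. It reached 35.4 ± 4.97 RPKM in CKO and 38.5 ± 1.69 RPKM in WT, with a log2 change of -0.13 and an interval from -0.38 to 0.12 (adjusted p = 0.491). The 5 motif matches in its first promoter window stood beside a change close to the -0.12 median of all tested genes. Slc16a1 (chromosome 3, 104638668 to 104658462, plus strand of mm10), which encodes the lactate and pyruvate transporter MCT1, was at 2.51, 2.63, 2.96 and 3.19 RPKM in CKO1 to CKO4. In WT1 to WT4 it was at 3.73, 3.56, 3.59 and 3.87 RPKM. Every CKO library lay below every WT library, and the mean was 2.83 ± 0.31 RPKM against 3.69 ± 0.146 RPKM. The log2 change was -0.30 (SE 0.11, interval -0.53 to -0.06, unadjusted p = 0.0178), and it did not pass adjustment over all tested genes (limma adjusted p = 0.104). Slc16a3, the exporter MCT4 of glycolytic cells, was at 0.483, 0.861, 1.22 and 0.735 RPKM in CKO and 1.12, 1.54, 1.07 and 1.03 RPKM in WT. CKO3 alone was among the WT values (-0.27, adjusted p = 0.209).

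The 2 tested kinases that direct carbon had positive changes with wide intervals. Pdk4, which inhibits pyruvate dehydrogenase, was at 2.94, 2.34, 3.57 and 4.54 RPKM in CKO and 2.86, 1.56, 4.43 and 2.1 RPKM in WT. Libraries of both groups alternated along this range (log2 change 0.25, interval -0.24 to 0.74, adjusted p = 0.491). Pfkfb3, which makes the phosphofructokinase activator fructose 2,6-bisphosphate, was at 2.57, 3.26, 2.9 and 4.53 RPKM in CKO and 2.5, 1.86, 3.49 and 3.54 RPKM in WT (0.17, adjusted p = 0.555). The HIF target kinases Pdk1 (0.543 ± 0.0664 RPKM in CKO, 0.77 ± 0.237 RPKM in WT) and Pfkfb4 (0.422 ± 0.157 and 0.584 ± 0.286 RPKM) were below the testing level.

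Of the HIF alpha subunits, Hif1a was the main one by RNA, with 72.9% to 83.2% of the summed RPKM of Hif1a and Epas1. Hif1a RNA was at 11.7 ± 1.79 RPKM in CKO and 11.4 ± 2.17 RPKM in WT (0.05, interval -0.28 to 0.37, adjusted p = 0.876). HIF alpha activity is set mainly through protein stability, which RNA does not measure. Epas1, which encodes HIF-2 alpha, was at 1.94, 2.71, 3.18 and 2.77 RPKM in CKO and 2.75, 4.5, 2.88 and 2.01 RPKM in WT, with WT2 far above the rest (-0.12, adjusted p = 0.689). Egln1 (chromosome 8, 124908587 to 124949324, minus strand of mm10), the main hydroxylase PHD2 and itself a HIF target, was at 3.91, 4.61, 4.67 and 3.67 RPKM in CKO1 to CKO4. In WT1 to WT4 it was at 5.29, 5.73, 5.31 and 5.21 RPKM. The groups did not overlap, with means of 4.21 ± 0.504 and 5.38 ± 0.233 RPKM. The log2 change was -0.30 (SE 0.11, interval -0.54 to -0.05, unadjusted p = 0.0217, limma adjusted p = 0.116). Egln3, the inducible PHD3, was below 1 RPKM in every library and ranged from 0.135 to 0.74 RPKM.

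**Figure D3:**
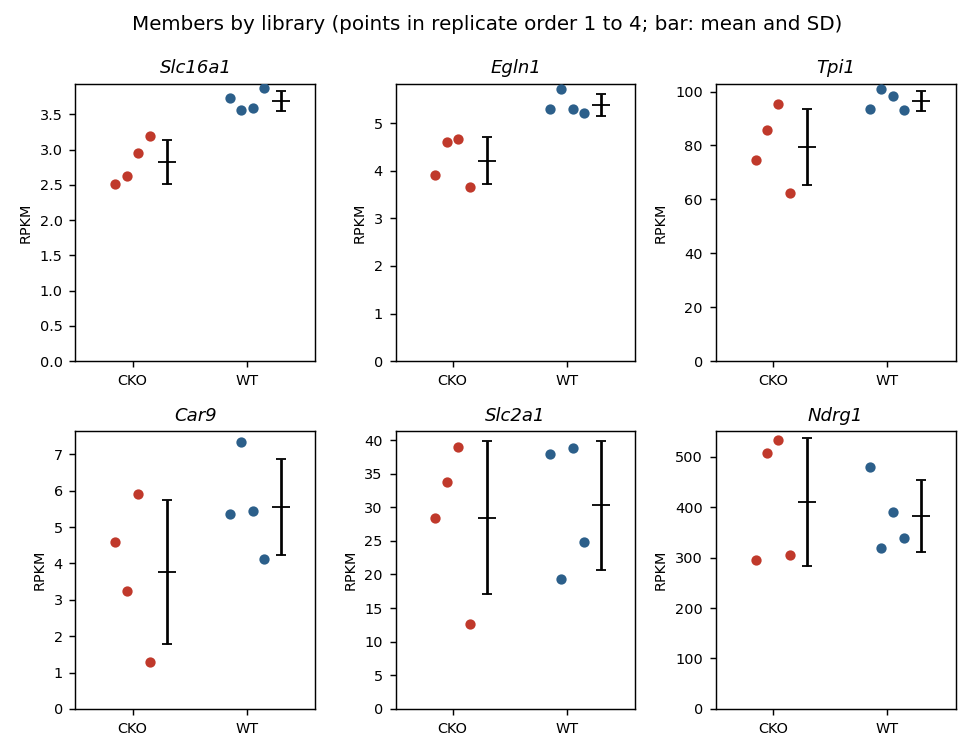
RPKM of 6 genes by library, as points in replicate order 1 to 4 within each group, with the mean and SD as a bar; every axis starts at 0. Slc16a1 and Egln1 do not overlap between the groups, while the other 4 genes overlap: Tpi1 through CKO3, Car9 through CKO1 and CKO3, and Slc2a1 and Ndrg1 over much of both ranges.

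The 8 HIF targets of the list did not move in 1 direction. Of the 7 tested, 4 had a positive and 3 a negative log2 change, with a median of 0.02. Car9, a carbonic anhydrase that is a standard tissue marker of hypoxia, was at 4.58, 3.24, 5.92 and 1.28 RPKM in CKO and 5.35, 7.33, 5.43 and 4.13 RPKM in WT. CKO4 was lowest, and CKO1 and CKO3 sat among the WT values. The log2 change of -0.56 had an interval from -1.20 to 0.09 (adjusted p = 0.25), and it ran from -0.77 to -0.24 as each library was left out. Bnip3l, a mitophagy receptor, was at 5.42, 5.85, 5.91 and 3.64 RPKM in CKO and 5.78, 7.58, 6.75 and 5.97 RPKM in WT. CKO1 and CKO4 were below the WT range, and CKO2 and CKO3 within it (-0.29, adjusted p = 0.226). Its relative Bnip3 had 3.76, 4.13, 3.55 and 5.08 RPKM in CKO and 3.58, 3.53, 3.48 and 3.55 RPKM in WT, a positive change of 0.17 (adjusted p = 0.376). The WT values of Bnip3 were the tightest of all these genes, with an SD of 1.11% of the mean.

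Ndrg1, the most abundant of these RNAs, was at 295, 508, 533 and 306 RPKM in CKO and 481, 320, 391 and 339 RPKM in WT. The CKO libraries fell into a high and a low pair on either side of the WT median, and the change was 0.07 (interval -0.39 to 0.52, adjusted p = 0.871). The collagen prolyl hydroxylases P4ha1 (-0.11, adjusted p = 0.583) and P4ha2 (0.07, adjusted p = 0.721) and the transcriptional repressor Bhlhe40 (0.02, adjusted p = 0.971) were close to 0. Ankrd37, a small HIF target, drew only 1, 6, 8 and 9 reads in CKO and 10, 19, 9 and 12 reads in WT, which is too few to rank the libraries.

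Levels did not overlap between the groups for 4 of the 36 genes, all lower in CKO: Slc16a1, Egln1, Aldoc and Ankrd37. Over all 16888 genes, 11.9% were lower and 2.34% higher without overlap, so 4 lower and 0 higher of 36 is near the background. Of the 28 tested genes 2 were lower without overlap, against 16.2% of all tested genes. With totals that leave out the digestive enzymes, and with median centring, Slc16a1 and Ankrd37 overlapped, while Aldoc and Egln1 did not.

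Aldoc (chromosome 11, 78322968 to 78327781, plus strand of mm10), the brain-type aldolase, is described more fully because of its values. Its CKO libraries held 0.183, 0.142, 0.194 and 0.11 RPKM and its WT libraries 0.59, 0.661, 0.491 and 0.537 RPKM, from 18, 14, 19 and 10 reads and 54, 61, 44 and 47 reads. The lowest WT library had more than the highest CKO library by a wide margin, and the mean was 3.62-fold lower in CKO (0.157 ± 0.0386 against 0.57 ± 0.0733 RPKM). When all 16888 genes were tested without a filter on low values, Aldoc was the only 1 of the 36 genes to pass, with a log2 change of -0.44 on the log2(RPKM + 1) scale (SE 0.06, adjusted p = 0.0066, limma). There 2.75% of all genes were called in either direction and 2.07% lower. On the recovered reads limma-voom gave -1.84 (SE 0.33, adjusted p = 0.00991), where 3.32% of 12548 genes were called lower. Beside the 93.1 RPKM or more of Aldoa in every library, Aldoc RNA was scarce in both groups.

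Some other genes with nerve-type expression were lower in CKO and others were higher or not called. Eno2, the neuronal enolase, was at 0.0804, 0.169, 0.161 and 0.184 RPKM in CKO and 0.557, 0.362, 0.46 and 0.672 RPKM in WT, without overlap (-0.39, adjusted p = 0.0286 by limma with no filter). As each library was left out, the Eno2 call held only without WT2, and the adjusted p was up to 0.0805. Lists of glial and neuronal markers were added after these values had been seen. S100b, a calcium-binding protein of glia, drew 2, 2, 6 and 1 reads in CKO and 31, 40, 19 and 43 reads in WT (adjusted p = 0.0112 with no filter). Snap25, a synaptic vesicle fusion protein, was at 0.108, 0.192, 0.265 and 0.026 RPKM against 1.28, 1.73, 1.48 and 2.13 RPKM (adjusted p = 0.000106). The genes named here were picked for their values, and the counts over the whole lists follow.

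Of the 10 glial markers 3 were tested and 1 fell (Mbp, a myelin protein, adjusted p = 0.0141), and without a filter 2 fell (S100b and Mbp). Erbb3, a neuregulin receptor of Schwann cells and of epithelia, had a positive change (0.57, adjusted p = 0.143). Of the 12 neuronal markers 3 were tested, and against the background of 1.42% higher and 5.74% lower 1 rose and 2 fell. Snap25 and Uchl1 fell, and Tubb3, neuronal tubulin, rose from 1.21 ± 0.433 RPKM in WT to 4.48 ± 2.14 RPKM in CKO (adjusted p = 0.0256). Without a filter 3 neuronal markers fell and 0 rose, against 2.07% of all genes lower, and neither Tubb3 (adjusted p = 0.0603) nor Uchl1 (0.0686) was then called. The Schwann cell markers Sox10 and Cdh19 were near or at 0 in both groups, with at most 9 reads in any library. Summed levels overlapped, at 11.8 to 24.1 RPKM in CKO and 12.8 to 19 RPKM in WT for glia and at 4.65 to 11.5 and 8.91 to 13.2 RPKM for neurons. These sums are weighted to the abundant genes, so their overlap does not show that most markers overlapped. Erbb3 alone gave 7.99 to 18.8 RPKM of the glial sum in CKO and 6.46 to 11.9 RPKM in WT. Tubb3 gave 1.95 to 6.49 RPKM of the neuronal sum in CKO and 0.734 to 1.77 RPKM in WT. The part of nerve tissue in the Aldoc difference was not tested, and in bulk tissue fewer cells of a type and less RNA per cell cannot be told apart.

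**Figure D4:**
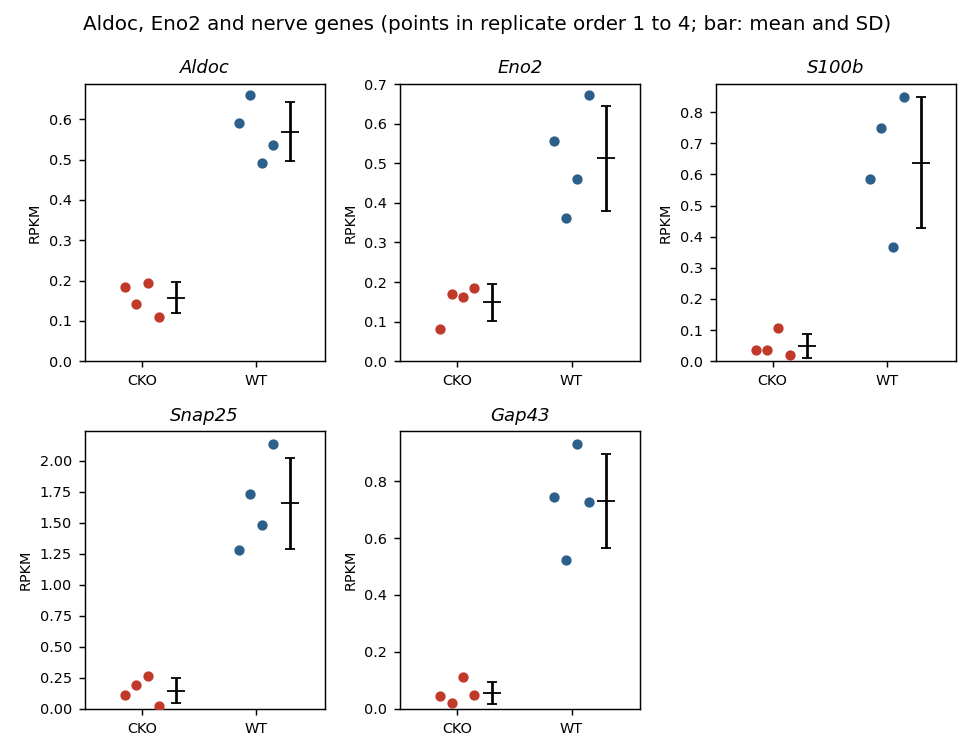
RPKM of Aldoc, Eno2 and the nerve genes S100b, Snap25 and Gap43 by library, as points in replicate order 1 to 4 within each group, with the mean and SD as a bar; every axis starts at 0. In all 5 genes every CKO library lies below every WT library, at 0.11 to 0.194 against 0.491 to 0.661 RPKM for Aldoc. The genes shown were picked for their values. Others of the same marker lists, not shown, overlapped between the groups or, like Tubb3, were higher in CKO.

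The libraries themselves ordered these genes in a common way. CKO3 was the highest CKO library in 19 of the 28 tested genes (67.9%), and CKO1 or CKO4 was the lowest in 13 and 11 (46.4% and 39.3%). WT2 was the highest WT library in 16 of 28 (57.1%). Over all tested genes CKO3 was highest in 56.9% and WT2 in 35.6%, and CKO1 and CKO4 were lowest in 47.1% and 41.5%. The median deviation of the 28 genes from their means was -0.17, 0.02, 0.14 and -0.16 on the log2 scale in CKO1 to CKO4. For all tested genes it was -0.169, 0.004, 0.087 and -0.145. The share of digestive enzyme reads ran the other way, at 66.72, 60.83, 57.8 and 65.27%. With totals that leave out those enzymes, CKO3 was highest in 12 of 28 genes (42.9%) and WT2 in 15 (53.6%). Of all tested genes the shares were then 22.3% and 34.2%.

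Cell type markers also differed between the libraries. The counts below stand against 5.74% of all tested genes called lower and 1.42% called higher. No such share was computed for summed levels. The 13 macrophage and monocyte markers summed to 206 to 408 RPKM in CKO libraries and 370 to 699 RPKM in WT libraries (2 of 12 tested fell, 0 rose). The 10 neutrophil markers summed to 14.4 to 47 RPKM and 37.6 to 84.1 RPKM (0 of 5 tested fell), and Ly6g, Mpo, Elane and Camp were at 0 in at least 4 libraries. The 8 duct markers summed to 343 to 626 RPKM in CKO and 647 to 757 RPKM in WT, without overlap (1 of 7 tested fell). The 7 islet markers went the other way, at 1300 to 2050 RPKM in CKO and 855 to 1650 RPKM in WT. All 7 had positive changes, with a median of 0.49, and 1 rose (Gcg, adjusted p = 0.0451). WT2, the library highest for many glycolysis genes, also stood apart in adipocyte markers, at 141 RPKM against 24 to 39.2 RPKM in the other 7 libraries. B and plasma cell markers summed to 13.2 RPKM in WT2 and 4.54 RPKM in WT3, against 0.142 to 0.496 RPKM elsewhere. The part of these cell types in the levels given above was not tested.

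Around these 36 genes, 98 further genes of glucose metabolism and the hypoxia response were listed, of which 96 were in the table and 59 were tested. There 3 rose and 4 fell, against the 1.42% and 5.74% of all tested genes given above, and the median log2 change was -0.10. The genes that moved did not share a direction even among textbook HIF targets. Of 21 other tested targets Vegfa rose and Hilpda and Angptl4 fell.

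Vegfa, the endothelial growth factor, was at 14.5, 18.8, 18.6 and 16.3 RPKM in CKO and 8.64, 6.74, 8.37 and 6.75 RPKM in WT. The groups were far apart, with a mean 2.24-fold higher in CKO (log2 change 1.07, SE 0.13, adjusted p = 0.00059). Hilpda, an inhibitor of lipolysis on lipid droplets, was at 7.3, 6.32, 8.35 and 5.9 RPKM in CKO and 22, 16.3, 22.8 and 20.3 RPKM in WT. It was lower in all 4 CKO libraries than in any WT library, and its mean was 2.92-fold lower (-1.42, SE 0.14, adjusted p = 9.6e-05). Angptl4, a lipoprotein lipase inhibitor, was at 3.47, 4.01, 5.93 and 7.09 RPKM in CKO and 7.87, 12.2, 8.28 and 9.14 RPKM in WT (-0.78, adjusted p = 0.033). Its groups did not overlap, but the adjusted p was as high as 0.093 as each library was left out, and the call was lost without CKO2, WT1, WT2, WT3 or WT4. Ddit4, an mTORC1 inhibitor induced by hypoxia and stress, was lower without overlap (95.1 ± 33 against 156 ± 23.2 RPKM) and missed the threshold (-0.78, adjusted p = 0.0815). Kdm3a and Higd1a of the same list missed it with a smaller limma adjusted p of 0.0763 each. Kdm3a was higher in CKO without overlap (2.97 ± 0.527 against 2.04 ± 0.149 RPKM, 0.38). Higd1a was lower without overlap (2.75 ± 0.448 against 3.89 ± 0.44 RPKM, -0.39).

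Both arrestin-family genes that respond to intracellular sugar phosphates rose. Txnip, which restrains glucose uptake, was at 150, 103, 139 and 172 RPKM in CKO and 78.6, 80.6, 66.8 and 72.8 RPKM in WT. No WT library reached the lowest CKO library, and the mean was 1.89-fold higher (0.89, SE 0.15, adjusted p = 0.00569). Its exons overlap those of Gm15441, so reads of the 2 genes may not be told apart. Arrdc4 was at 10.1, 13.7, 12.8 and 19.8 RPKM in CKO and 7.19, 3.4, 7.52 and 8.16 RPKM in WT, also without overlap (1.01, SE 0.24, adjusted p = 0.0328). The Arrdc4 call was lost without CKO2, CKO3, CKO4, WT1 or WT3, where the adjusted p was up to 0.0808. The other 2 tested genes of this list were not called, among them Mlx (-0.24, adjusted p = 0.367), which encodes the common partner of the sugar-sensing transcription factors.

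**Figure D5:**
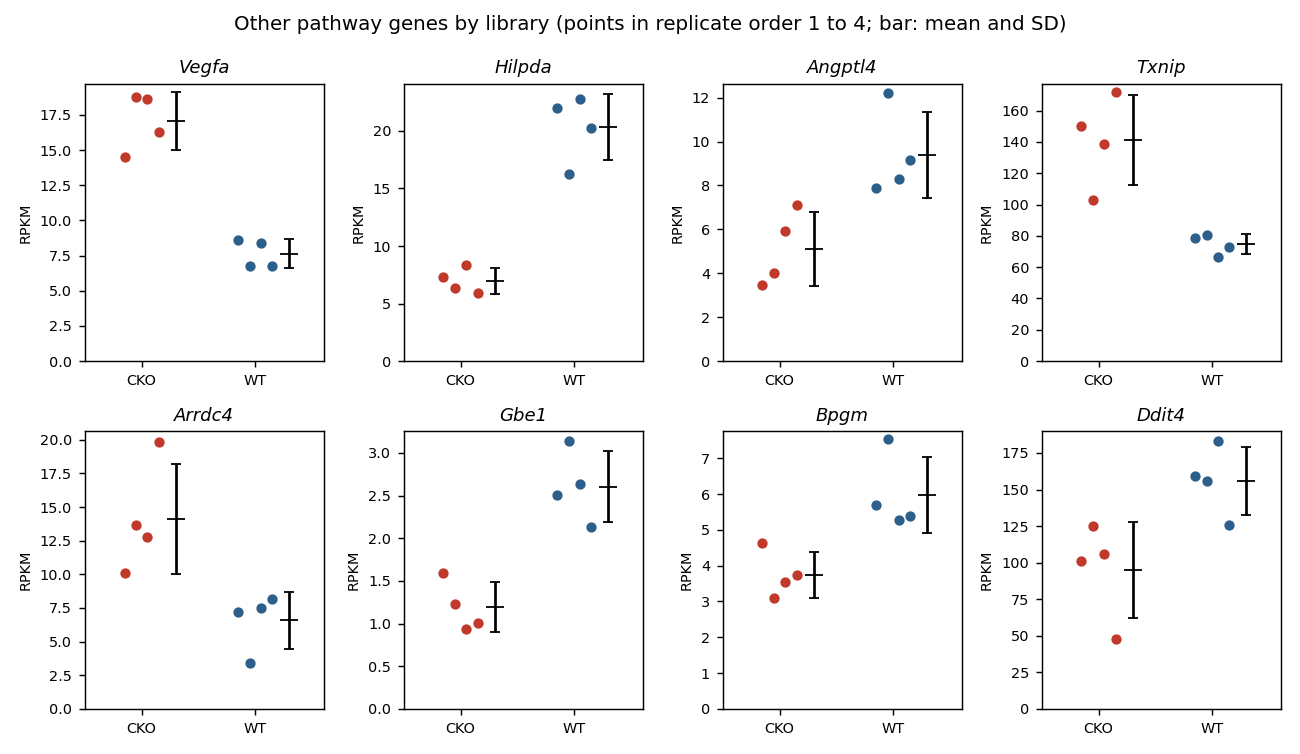
RPKM of 8 further glucose and hypoxia genes by library, as points in replicate order 1 to 4 within each group, with the mean and SD as a bar; every axis starts at 0. Vegfa, Txnip and Arrdc4 are higher and Hilpda, Angptl4, Gbe1, Bpgm and Ddit4 lower in every CKO library than in any WT library; Ddit4 did not pass the adjusted test.

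In glycogen metabolism Gbe1, the branching enzyme, was at 1.59, 1.23, 0.941 and 1.01 RPKM in CKO and 2.51, 3.14, 2.63 and 2.13 RPKM in WT. The groups did not overlap, and the mean was 2.18-fold lower in CKO (-0.72, SE 0.13, adjusted p = 0.00961). The call held as each library was left out, with an adjusted p of at most 0.0328. It was the only 1 of 11 tested genes of gluconeogenesis and glycogen metabolism to pass. Of the 3 other glycolysis isozymes tested Bpgm, the red-cell enzyme that makes 2,3-bisphosphoglycerate, fell. It was at 4.63, 3.11, 3.53 and 3.73 RPKM in CKO and 5.69, 7.53, 5.27 and 5.38 RPKM in WT, without overlap (-0.55, adjusted p = 0.0366). That call was lost without any library except CKO1 in turn, with an adjusted p of up to 0.106. Of 4 tested erythroid markers 2 fell, against 5.74% of all tested genes. They were the globin genes Hbb-bt (-0.72, adjusted p = 0.0371) and Hba-a2 (-0.74, adjusted p = 0.0283), which have near-identical copies. All 4 tested erythroid markers had negative changes, as had 5991 of all 8513 tested genes. The more abundant Hbb-bs (33.77 against 40.85 RPKM, limma adjusted p = 0.303) and Hba-a1 (20.28 against 22.16 RPKM, 0.651) overlapped and were not called. The 5 erythroid markers summed to 38.9 to 88.8 RPKM in CKO libraries and 60.6 to 92.4 RPKM in WT libraries, and the part of blood cells in the Bpgm difference was not tested.

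Entry of pyruvate into mitochondria showed 0 calls among 10 tested genes, the pyruvate carrier subunit Mpc1 having the smallest p (-0.30, adjusted p = 0.199), followed by the dehydrogenase subunit Dld (-0.22, adjusted p = 0.229). The rest of the HIF machinery likewise had 0 of 10. Of these 10, 3 had an unadjusted p under 0.05 by limma, against 27.3% of all tested genes. Without overlap 2 were lower and 1 was higher in CKO, against 16.2% and 2.46% of all tested genes. Eloc and Rbx1 encode components of the VHL ubiquitin ligase complex. Eloc was at 6.42 ± 1.19 RPKM in CKO and 9.84 ± 2.15 RPKM in WT (-0.54, adjusted p = 0.0587), and Rbx1 was at 5.21 ± 0.33 and 7.01 ± 0.841 RPKM (-0.36, adjusted p = 0.0738). Cul2 (-0.08, adjusted p = 0.709) and Elob (-0.04, adjusted p = 0.817) of the same complex, and Vhl itself (-0.15, adjusted p = 0.507), were not called. Arnt, the common partner of the HIF alpha subunits, was higher in CKO without overlap (5.23 ± 0.303 against 4.12 ± 0.746 RPKM) and missed the threshold (0.29, adjusted p = 0.167).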

How the data were processed

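Total RNA of 8 mouse pancreas samples was sequenced by the authors, and mm10 is the genome build named, per the submitters' processing notes. The sources used here do not give the aligner, the counter, the annotation or the handling of reads that fit several genes. The authors deposited RPKM, that is, read counts divided by gene length and library total, as read from the values, since the table's header names no unit. Multiplied by a gene length and the library total, 16057 of 16068 genes above 0 in at least 2 libraries (99.93%) came out as whole reads within 0.05 reads, and none of the 36 genes was among the exceptions. Gene reads made up at least 99.97% of each total, and 3 reads on a gene of 1 kb were worth 0.0873 to 0.0985 RPKM (counting error only). A further unnamed value column (1) was not used.

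limma 3.58.1 in R 4.3.3 was fitted to log2 of RPKM plus a pseudocount of 1 for the 8513 genes that reached 1 RPKM in at least 4 libraries. The model held group alone, with trended, robust empirical Bayes variances and Benjamini-Hochberg adjustment over all tested genes. The log2(RPKM + 1) scale understates changes of low genes, while folds compare mean RPKM. The 36 genes and all lists were chosen with earlier results of these data known. Full values were given for genes past the threshold or, in each role without one, for the 1 or 2 with the smallest p. Some genes were singled out after their values were seen. These were Aldoc, Bnip3, Eno2, Ndrg1, Ddit4, Kdm3a, Higd1a, Car12, Bhlhe41, the marker genes named and the further VHL complex genes. Alternatives were a pseudocount of 0.1, no filter, a filter at 5 RPKM, no trend, limma-voom on recovered reads, median centring, totals without digestive enzymes, the replicate number as a block, and each library left out. For genes below the filter, the same alternatives without a filter, and limma-voom on genes with 10 reads in at least 4 libraries, were added after the data were seen. Promoters are RefSeq windows of GRCm38.p6, and positions and transcripts are GENCODE M21. A few genes, and values that rest on them, are not reported here. The steps were tested on simulated data. Python 3.11.15, NumPy 2.4.6, pandas 2.3.3 and Matplotlib 3.10.9 were used.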

Additional observations from a re-analysis of the deposited data

Results flagged for a closer look

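In 4 of the 100 groups of 4 libraries examined, 1 library stood further from the other 3 than Dixon's 95% critical value of 0.829 allows; chance gives about 1 in 20. Slc2a3 was at 0.235 RPKM in CKO3, against 0.0748 to 0.0972 RPKM in the other CKO libraries. Pgam1 was at 14.2 RPKM in CKO3, against 10.5 to 10.7 RPKM. Pkm was at 31.6 RPKM in WT2, against 24.4 to 25.4 RPKM in WT1, WT3 and WT4. Rbx1 was at 8.26 RPKM in WT2, against 6.46 to 6.72 RPKM.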

How the results depend on the processing

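The count of the 36 genes called higher was 0 in the comparison and in all alternatives, and the count called lower was 0 in all but the test without a filter on low values, where it was 1 (Aldoc, which the filters leave out; limma-voom on genes with 10 reads in 4 libraries called it too). The Aldoc change kept its call as each library was left out (-0.46 to -0.41, adjusted p at most 0.0346), and with the replicate number as a block its adjusted p was 0.0694. With the block 0 of 28 were called, as without it, and of all genes 548 against 610. Same-numbered samples did not deviate together (correlations -0.123, -0.315, 0.142 and 0.033), so the numbers do not pair the samples. The median log2 change of the tested genes lay between -0.19 (without CKO3) and -0.01 (median centring). Of 438 values of the 28 genes under alternatives, 415 kept their direction and side of the threshold and 23 changed sign. Hk1 went to 0.047 with median centring and 0.008 with totals without digestive enzymes, Gapdh to 0.024 and 0.007, and Pkm to 0.101 and 0.090. Without a filter, Hk2 went to 0.056 and Ldhb to 0.043 with centring, and Slc2a3 to -0.011 (pseudocount 0.1) and -0.050 (limma-voom). As each library was left out, signs changed for Slc2a1 (-0.329 to 0.194), Hk1 (-0.148 to 0.069), Gapdh (-0.230 to 0.018), Pkm (-0.039 to 0.080), Hif1a (-0.077 to 0.133), Epas1 (-0.250 to 0.040), Ndrg1 (-0.078 to 0.206), Bhlhe40 (-0.125 to 0.250), Slc2a3 (-0.044 to 0.023, and -0.010 and -0.019 without WT3 and WT4), Hk2 (-0.093 to 0.043), Ldhb (-0.163 to 0.031, and 0.012 without CKO2) and Egln3 (-0.006 to 0.216); the cause was not tested. Of all genes 121 were called higher and 489 lower, and the split was 305 and 267 with median centring and 251 and 349 with totals without digestive enzymes. The count of all genes called was 360 with a filter at 5 RPKM (fewer genes tested), 464 without a filter and 223 to 705 as each library was left out. Outside the 36 genes the Anxa1 call was lost without a filter (adjusted p = 0.0932), with limma-voom (0.0595), with centring (0.0899) and with totals without digestive enzymes (0.0851). Bpgm was lost in 5 of these alternatives, including the block (0.0537), Angptl4 in 3 and Arrdc4 without a filter (0.0755), while Ddit4 passed with the block (0.0335). Genes under 1 RPKM rest on few reads.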

Other observations

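Low in all libraries, Car12, a carbonic anhydrase and HIF target, was higher in CKO (0.126 ± 0.0325 RPKM) than in WT (0.0168 ± 0.0138 RPKM) without overlap, and passed the test without a filter (adjusted p = 0.0153, limma). Bhlhe41, the relative of Bhlhe40 among clock and hypoxia repressors, was lower (0.0726 ± 0.0239 against 0.247 ± 0.0734 RPKM, adjusted p = 0.0414 in the same test). Both stood below 1 RPKM in every library and belong to the 37 further pathway genes that the filter left out.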
